A study of Mus musculus with 10 samples.

Results

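The genes described here are the collagens other than the type IV pair Col4a1 and Col4a2, together with the enzymes that modify and cut the extracellular matrix and the inhibitors that restrain those enzymes. They were taken by gene symbol alone: Col followed by digits and a, Adamts with Adamtsl, Mmp, Timp, Plod, Lox with Loxl, Fbln, Agrn and Serpin, with Serpinh1 left out and Fn1 not analysed here. The rule reads symbols and no measured value, but it was chosen with earlier results of these data known. It gave 136 genes with 186 probes, of 16593 genes that carry a symbol on the array. Of these, 48 genes lay above background on at least 5 of the 10 arrays and were tested, among 10087 genes tested in all.

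Collagen chains are hydroxylated on proline and lysine in the endoplasmic reticulum, where Plod enzymes act on lysine, and after secretion lysyl oxidases of the Lox family oxidise lysines so that the fibres can be cross-linked. Mmp and Adamts proteases cut the assembled matrix, Timp proteins block them, and most serpins trap serine proteases. In the early mouse embryo, primitive endoderm and its parietal derivative lay down a thick basement membrane, and Sox17, an HMG-box transcription factor, is expressed in that lineage.

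Total RNA came from KH2 cells, a mouse embryonic stem cell line that here carries a doxycycline-controlled Sox17 transgene with a V5 tag. There were 5 Illumina bead arrays titled Sox17(+), labelled Sox17-V5 expression and, per the series text, induced with doxycycline for 48 h, and 5 titled Sox17(-), labelled control and not induced. The treatment field names doxycycline for every sample, and all samples share the same cell line and transgene background as far as the labels say. Nothing in the labels ties an array to a culture of its own, so the p-values rest on a spread between arrays that may be technical. In the descriptions, replicate numbering starts anew at title 4 of each label. Levels are given in 4 title groups: Sox17(+) 4-5, Sox17(+) 2-3, Sox17(-) 4-5 with Sox17(+) 1, and Sox17(-) 1-3. By its numbering Sox17(+) 1 belongs with Sox17(+) 2-3. Its place beside Sox17(-) 4-5 comes from earlier results of these data and not from the labels, and in the tests between titles it was kept apart with a mean of its own.

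The Sox17 probe read against the labels. Sox17 (probe ILMN_2747986) had an intensity of 16.7 and 15.0 on Sox17(+) 4 and 5 and 13.6 and 12.0 on Sox17(+) 2 and 3. It had 60.6, 65.3 and 67.3 on Sox17(-) 4, Sox17(-) 5 and Sox17(+) 1, and 32.6, 32.1 and 30.5 on Sox17(-) 1 to 3. The highest array was thus labelled Sox17(+) and the 4 lowest were too, and the difference between the labels did not pass the test (-0.66 ± 0.29, limma adjusted p = 0.120). With Sox17(+) 1 kept apart, Sox17 was called lower on Sox17(+) 4-5 than on Sox17(-) 4-5 (-1.31 ± 0.09, limma adjusted p = 8.52e-05). It was also lower on Sox17(+) 2-3 than on Sox17(-) 1-3 (-0.73 ± 0.08, limma adjusted p = 0.000325). Titles 4-5 were higher within Sox17(-) (0.73 ± 0.08, limma adjusted p = 0.000759) and not called within Sox17(+) (0.145). Whether this probe reads the transgene is not known here. On the first principal component of all tested probes (56.7% of the variance) Sox17(+) 2 to 5 scored 26.8 to 36.5 and the other 6 arrays -24.1 to -18.4. On the second (20.4%) titles 1-3 of Sox17(-) and 2-3 of Sox17(+) scored 14.8 to 17.6, and the other 5 arrays -17.5 to -13.3. Every direction given between the labels is a direction between arrays so labelled. Differences are of log2(intensity + 16) and are followed by ± their standard error, mean intensities are followed by ± the SD, and a gene is called where its limma p, adjusted over all 14985 tested probes by the Benjamini-Hochberg method, is under 0.05. Probes differ in brightness, so no gene's level is set against another's. In RNA from whole cultures, fewer cells of a type and less RNA per cell cannot be told apart.

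Most members lay at or near background. A background limit of 10.6 was set from the values below 0. Of the 88 genes not tested, 66 lay above it on no array with any probe, and 22 on 1 to 4 arrays. These include the chains of the fibrillar collagens of connective tissue: Col3a1 lay above the limit on 0 of 10 arrays, Col1a2 on 1 and Col1a1 on 2, with a highest Col1a1 intensity of 13.8 on Sox17(-) 2. Lox, the founding lysyl oxidase, lay above it on 1 array (11.8 on Sox17(-) 3). Tested were 4 of 11 fibrillar collagens, 6 of 24 other collagens, 5 of 8 Plod and Lox genes, 3 of 5 fibulin and agrin genes, 11 of 20 Mmp genes, 8 of 16 Adamts and Adamtsl genes, 3 of 4 Timp genes and 8 of 48 serpins. For 36 of the 48 tested genes the probe used was above the limit on all 10 arrays. A gene is represented by its brightest probe.

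Within the arrays titled Sox17(-), Loxl2, Loxl1, Plod2, Timp2 and Adamts19 were lower in titles 4-5 than in titles 1-3, and Serpinb6c, Serping1, Mmp23 and Timp1 were higher. This comparison holds the label constant. Of 48 tested members 4 were called higher and 5 lower (18.8%), beside 10% called of all tested genes, 5.01% higher and 5.03% lower. The median difference was 0.19 over the members and -0.01 over all tested genes. At an unadjusted p under 0.05 there were 23 members (47.9%), beside 26.3% of all tested genes.

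The same comparison within the arrays titled Sox17(+), titles 4-5 against 2-3, called 4 members higher and 9 lower (27.1%), beside 8.38% of all tested genes, 3.38% higher and 5.00% lower. The median was -0.07 over the members and -0.01 over all tested genes. At an unadjusted p under 0.05 there were 16 members (33.3%), beside 21.9% of all tested genes. The number called was 8 without Sox17(+) 2 and 7 without Sox17(+) 3 or Sox17(+) 5, and 2 (Loxl1 and Plod2) with Sox17(+) 1 joined to Sox17(+) 2-3. The 4 arrays of this comparison and the 5 of the one before it have none in common, though all were fitted with 1 estimate of the spread. Called in the same direction in both were 3 members higher (6.25%, beside 2.10% of all tested genes) and 5 lower (10.4%, beside 2.63%). Opposite calls were given to 0 members, beside 1 of all 10087 tested genes. The 3 higher are 3 of the 4 called higher in each comparison, and the 5 lower are all 5 of the Sox17(-) arrays and 5 of the 9 of the Sox17(+) arrays. Groups that do not overlap were frequent in such small groups: 29 of 48 members within Sox17(-) (45.1% of all tested genes) and 30 within Sox17(+) (50.1%).

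**Figure D1:**
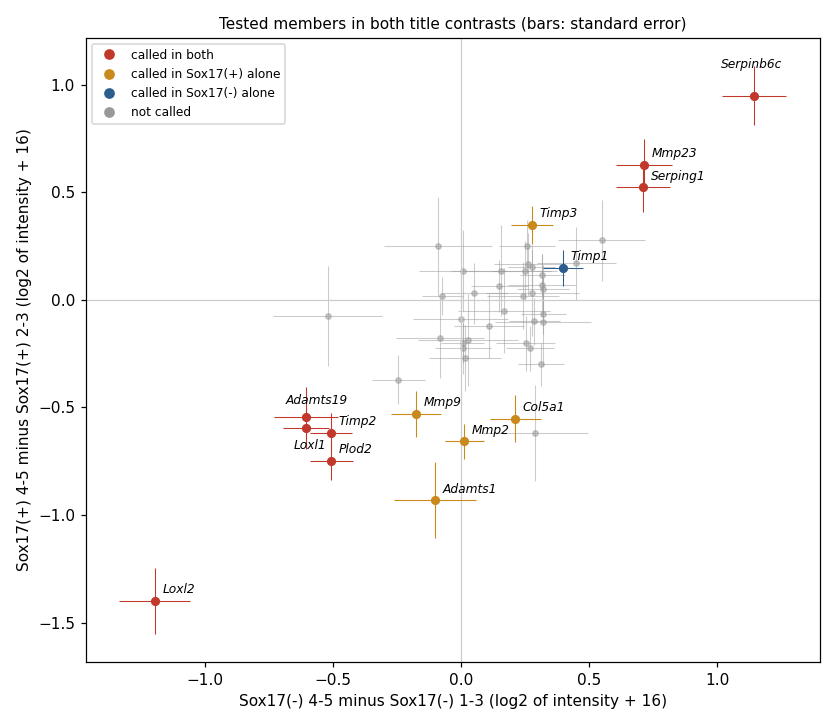
Difference of each of the 48 tested members in titles 4-5 against 1-3 of Sox17(-) (horizontal) and in titles 4-5 against 2-3 of Sox17(+) (vertical), both as log2 of intensity plus 16, with bars of 1 standard error and colours for the calls. Serpinb6c lies farthest to the upper right (1.14 and 0.95) and Loxl2 farthest to the lower left (-1.19 and -1.40). No coloured point was called in opposite directions, beside 1 of all 10087 tested genes.

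The lysyl oxidase gene Loxl2 had the largest fall among members in both comparisons. Its intensity was 31.1 and 31.8 on Sox17(+) 4 and 5, against 105 and 114 on Sox17(+) 2 and 3. It was 46.1 and 52.9 on Sox17(-) 4 and 5, against 162, 108 and 136 on Sox17(-) 1 to 3, and 54.5 on Sox17(+) 1. No array of titles 4-5 reached the lowest of the lower titles, and Sox17(+) 1 lay beside Sox17(-) 4 and 5. Loxl2 fell by 1.40 ± 0.15 on the Sox17(+) arrays (3.47-fold by mean intensity, limma adjusted p = 0.000787) and by 1.19 ± 0.14 on the Sox17(-) arrays (2.73-fold, limma adjusted p = 0.00108).

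The related Loxl1, which acts on elastin, had 138 and 146 on Sox17(+) 4 and 5, against 226 and 219 on Sox17(+) 2 and 3. On Sox17(-) 4 and 5 it had 193 and 190, against 330, 285 and 285 on Sox17(-) 1 to 3. The groups did not overlap in either label, and Sox17(+) 1 read 232. The differences were -0.59 ± 0.10 and -0.60 ± 0.09 (limma adjusted p = 0.0068 and 0.00404).

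Plod2, the lysyl hydroxylase of collagen telopeptides, moved with them. It had 204 and 200 on Sox17(+) 4 and 5, against 355 and 345 on Sox17(+) 2 and 3. It had 349 and 351 on Sox17(-) 4 and 5, against 464, 525 and 524 on Sox17(-) 1 to 3. Sox17(-) 4 and 5 thus stood level with Sox17(+) 2 and 3, and Sox17(+) 1, at 371, stood close to both. The falls were 0.75 ± 0.09 within Sox17(+) and 0.51 ± 0.08 within Sox17(-) (limma adjusted p = 0.00161 and 0.00698). Of the 5 tested Plod and Lox genes, 3 fell and 0 rose in each comparison (5.00% and 5.03% of all tested genes fell). The others were Plod3, a lysyl hydroxylase that also adds sugars to collagen (-0.10 within Sox17(+) and 0.29 within Sox17(-)), and Plod1 (0.17 and 0.45), and neither was called in either.

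Timp2, an inhibitor that also takes part in the activation of pro-Mmp2 by Mmp14, fell in both. It had 60.3 and 58.9 on Sox17(+) 4 and 5, against 95.1 and 105 on Sox17(+) 2 and 3, and 77.8 and 75.2 on Sox17(-) 4 and 5, against 115, 121 and 110 on Sox17(-) 1 to 3. Sox17(+) 1, at 76.3, lay between Sox17(-) 4 and 5. The differences were -0.62 ± 0.09 and -0.51 ± 0.08 (limma adjusted p = 0.00364 and 0.00612).

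The clade B serpin Serpinb6c had the largest rise. It had 459 and 410 on Sox17(+) 4 and 5, against 253 and 186 on Sox17(+) 2 and 3. It had 454 and 476 on Sox17(-) 4 and 5, against 199, 192 and 214 on Sox17(-) 1 to 3, and Sox17(+) 1 read 428. The 5 brighter arrays thus ran from 410 to 476 and the 5 dimmer from 186 to 253, whichever the label. The rises were 0.95 ± 0.14 (1.98-fold, limma adjusted p = 0.00338) and 1.14 ± 0.13 (2.30-fold, limma adjusted p = 0.000753). Serpinb6c belongs to a cluster of near copies, and a probe may read more than 1 of them. The copy Serpinb6a was not called in either comparison (0.25 and 0.26), and Serpinb6b, Serpinb6d and Serpinb6e were too dim to be tested.

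Serping1, the inhibitor of complement C1 proteases, had 230 and 224 on Sox17(+) 4 and 5, against 162 and 145 on Sox17(+) 2 and 3, and 393 and 364 on Sox17(-) 4 and 5, against 221, 253 and 203 on Sox17(-) 1 to 3. It was higher in titles 4-5 of each label, and Sox17(+) 4 and 5 stood level with Sox17(-) 1 to 3. The rises were 0.52 ± 0.11 and 0.71 ± 0.10 (limma adjusted p = 0.026 and 0.00382). Within Sox17(+) the call was lost without any of Sox17(+) 2, 3, 4 or 5 (0.45 to 0.60, highest limma adjusted p = 0.151).

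Mmp23, a metalloprotease, had 90.5 and 104 on Sox17(+) 4 and 5, against 62.8 and 51.7 on Sox17(+) 2 and 3, and 106 and 94.5 on Sox17(-) 4 and 5, against 48.3, 57.8 and 58.1 on Sox17(-) 1 to 3. As with Serpinb6c, the arrays fell into a brighter and a dimmer 5 with no gap between the labels, with Sox17(+) 1 at 97.5. The rises were 0.63 ± 0.12 and 0.72 ± 0.11 (limma adjusted p = 0.0141 and 0.00471), and the call within Sox17(+) was lost without Sox17(+) 3 (0.52) or Sox17(+) 5 (0.54).

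Adamts19 had 31.1 and 27.9 on Sox17(-) 4 and 5, against 53.6, 60.9 and 45.9 on Sox17(-) 1 to 3, a difference of -0.61 ± 0.13 (limma adjusted p = 0.018). This call was lost without any of Sox17(-) 1, 2, 4 or 5 (-0.69 to -0.53). It was also called lower on Sox17(+) 4-5 (limma adjusted p = 0.0457), but 3 of those 4 arrays lay at or below the background limit, so no fold is given, and that call was lost without any of 6 arrays, Sox17(+) 2, 4 and 5 and Sox17(-) 1, 4 and 5.

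**Figure D2:**
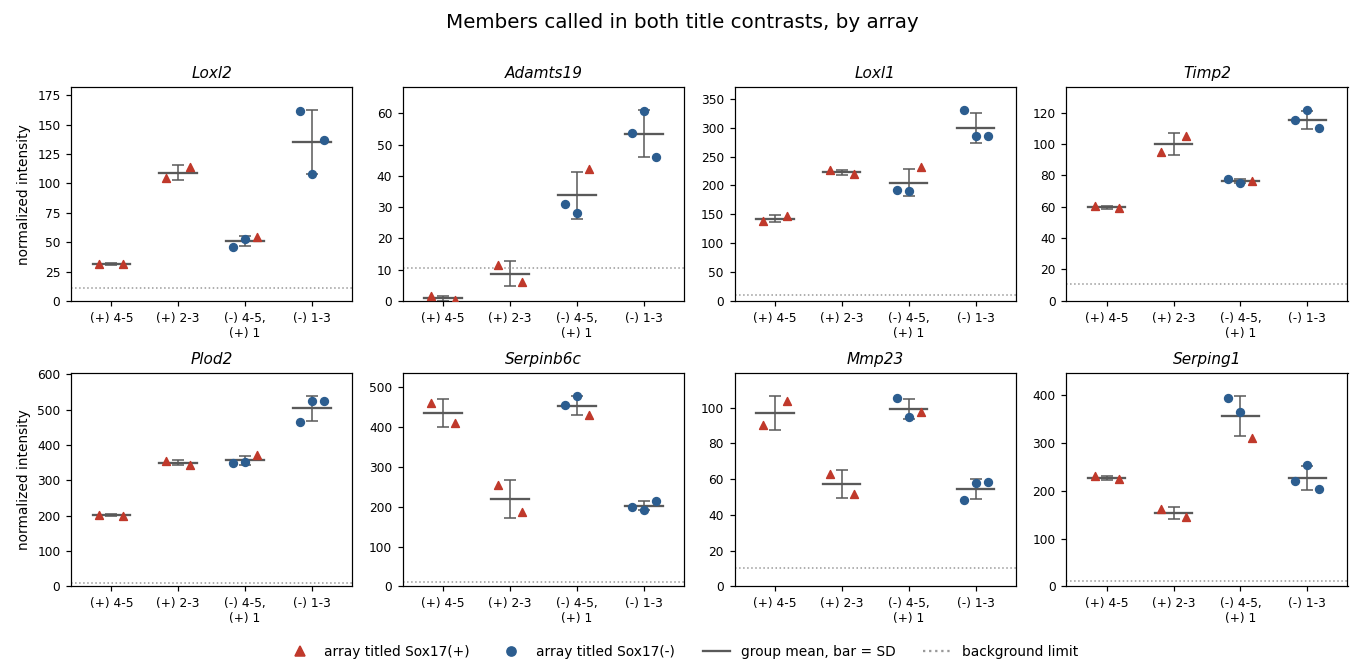
Normalized intensity (linear scale from 0) of the 8 members called in both title comparisons, 1 panel a gene, with the title groups from left to right Sox17(+) 4-5, Sox17(+) 2-3, Sox17(-) 4-5 with Sox17(+) 1, and Sox17(-) 1-3. Points are arrays (triangles Sox17(+), circles Sox17(-)), lines the group mean with SD over 2, 2, 3 and 3 arrays, and the dotted line the background limit of 10.6. Loxl2, Loxl1, Timp2 and Plod2 are lower, and Serpinb6c, Mmp23 and Serping1 higher, in titles 4-5 of each label.

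Promoters were read for the members called in both comparisons, and RefSeq starts were matched for Mmp23, Serpinb6c and Timp2 (assembly GRCm38.p6). Each window runs from 250 bases before to 50 bases after the start, on the strand of the gene. The Mmp23 window is chr4:155653335-155653634 on the minus strand, the upstream of 2 listed starts, that of Serpinb6c chr13:33905142-33905441 on the minus strand, and that of Timp2 chr11:118355362-118355661 on the minus strand. They are shown as promoters of members called in both comparisons, of which Mmp23 and Serpinb6c rose and Timp2 fell. Capitals mark the letters ACAAT or ATTGT, the core that Sox proteins bind, read on both strands.
Mmp23: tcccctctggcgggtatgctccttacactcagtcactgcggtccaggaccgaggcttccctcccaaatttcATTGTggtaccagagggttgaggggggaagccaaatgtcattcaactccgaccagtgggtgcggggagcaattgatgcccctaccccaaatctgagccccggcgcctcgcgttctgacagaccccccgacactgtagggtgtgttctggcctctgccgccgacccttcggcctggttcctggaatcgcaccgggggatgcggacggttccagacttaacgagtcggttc
Serpinb6c: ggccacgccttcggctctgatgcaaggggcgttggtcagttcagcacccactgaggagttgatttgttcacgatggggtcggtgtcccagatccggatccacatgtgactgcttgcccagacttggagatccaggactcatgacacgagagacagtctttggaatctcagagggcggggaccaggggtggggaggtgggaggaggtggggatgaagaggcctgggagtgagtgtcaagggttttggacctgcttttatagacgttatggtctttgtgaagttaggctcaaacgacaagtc
Timp2: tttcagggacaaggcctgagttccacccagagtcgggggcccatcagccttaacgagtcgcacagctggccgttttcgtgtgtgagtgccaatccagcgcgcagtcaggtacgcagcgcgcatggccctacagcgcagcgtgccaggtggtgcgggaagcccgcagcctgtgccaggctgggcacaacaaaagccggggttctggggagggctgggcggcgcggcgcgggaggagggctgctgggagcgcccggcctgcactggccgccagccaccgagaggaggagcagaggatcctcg
Only the Mmp23 window among these 3 holds the core, at base 72 from its 5′ end, and the window of the other Mmp23 start holds none. The core occurs in 31.0% of 32851 promoter windows and in 10 of 42 windows of tested members (23.8%). The hypoxia response core ACGTG or CACGT occurs in 0 of the 3 windows, in 19.6% of all windows and in 8 of the 42. These matches describe letters and not binding.

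Further members were called within 1 label. On the Sox17(+) arrays, Mmp2, the gelatinase that cuts denatured collagen and type IV collagen, had 175 and 176 on titles 4 and 5, against 277 and 294 on titles 2 and 3 (-0.66 ± 0.08, limma adjusted p = 0.00174). On the Sox17(-) arrays it had 632 and 617 on titles 4 and 5, against 629, 612 and 614 on titles 1 to 3 (0.01 ± 0.08, limma adjusted p = 0.936). Mmp9, the other gelatinase, had 59.8 and 57.6 on Sox17(+) 4 and 5, against 89.3 and 94.4 on Sox17(+) 2 and 3 (-0.53 ± 0.11, limma adjusted p = 0.0177). It was not called within Sox17(-) (-0.18 ± 0.10). The Mmp9 call was lost without any of Sox17(+) 2 to 5 (-0.56 to -0.50), and the Mmp2 call held with each of the 10 arrays left out in turn.

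Col5a1, a fibrillar collagen chain that starts the assembly of fibrils, had 145 and 134 on Sox17(+) 4 and 5, against 211 and 212 on Sox17(+) 2 and 3 (-0.55 ± 0.11, limma adjusted p = 0.0167). On the Sox17(-) arrays it had 184 and 194 on titles 4 and 5, against 183, 151 and 150 on titles 1 to 3, and was not called (0.21 ± 0.10). Adamts1, which cuts the proteoglycans aggrecan and versican, had 4.58 and 12.2 on Sox17(+) 4 and 5, against 32.3 and 27.8 on Sox17(+) 2 and 3 (-0.93 ± 0.18, limma adjusted p = 0.0128). Its value on Sox17(+) 4 lay below the background limit, so no fold is given. The Col5a1 call was lost without Sox17(+) 2 (-0.56), 3 (-0.55) or 5 (-0.50), and the Adamts1 call without Sox17(+) 2 (-0.86), 3 (-1.0) or 4 (-0.70).

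Timp1, a secreted inhibitor of metalloproteases, had 1331 and 1301 on Sox17(-) 4 and 5, against 984, 1020 and 981 on Sox17(-) 1 to 3 (0.40 ± 0.08, limma adjusted p = 0.0137), and a second probe was called as well (0.49). On Sox17(+) 4 and 5 it had 1058 and 1035, against 909 and 978 on Sox17(+) 2 and 3, and was not called (0.15 ± 0.09). Timp3, which binds the matrix and also blocks Adamts enzymes, had 72.9 and 64.9 on Sox17(+) 4 and 5, against 51.3 and 49.9 on Sox17(+) 2 and 3 (0.35 ± 0.09, limma adjusted p = 0.0481). On the Sox17(-) arrays it had 108 and 100 on titles 4 and 5, against 83.9, 83.7 and 81.3 on titles 1 to 3 (0.28 ± 0.08, limma adjusted p = 0.0671). In each label Timp1 and Timp3 thus stood higher, and Timp2 lower, in titles 4-5, though not each of these differences passed the test. The Timp1 call was lost without Sox17(-) 1 (0.39), 4 (0.38) or 5 (0.41), and the Timp3 call without any of Sox17(+) 2 to 5 (0.28 to 0.42) or of Sox17(-) 1 to 5 (0.35, highest limma adjusted p over these 0.195).

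**Figure D3:**
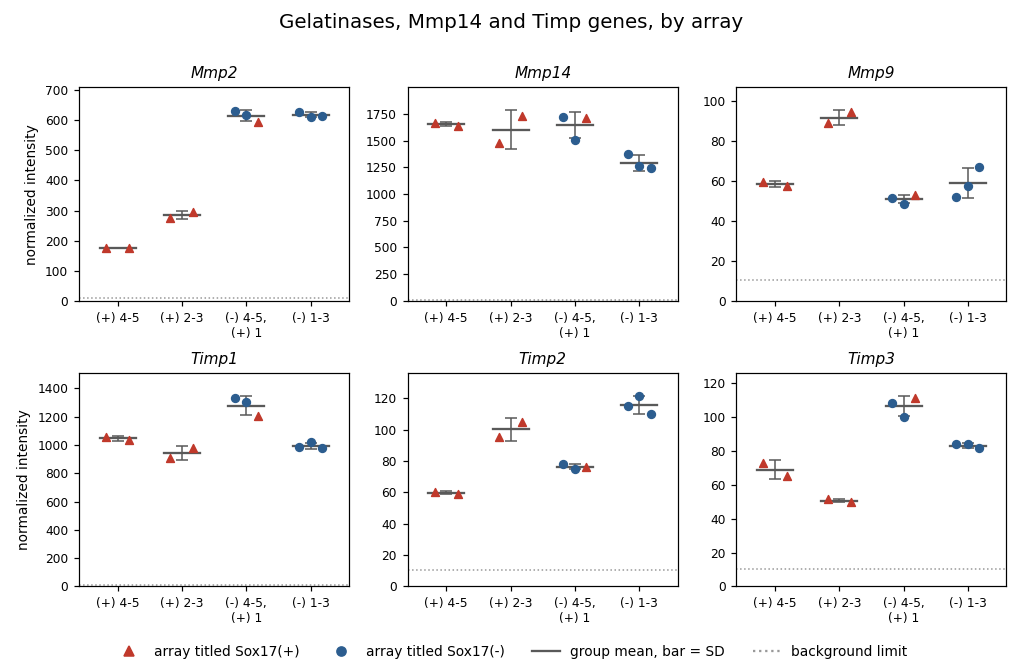
Normalized intensity (linear scale from 0) of both gelatinase genes, of Mmp14 and of the 3 tested Timp genes, with the title groups from left to right Sox17(+) 4-5, Sox17(+) 2-3, Sox17(-) 4-5 with Sox17(+) 1, and Sox17(-) 1-3. Points are arrays (triangles Sox17(+), circles Sox17(-)) and lines the group mean with SD over 2, 2, 3 and 3 arrays. Mmp2 runs from 175 to 294 on Sox17(+) 2 to 5 and from 596 to 632 on the other 6 arrays, while Timp2 is lower in titles 4-5 of each label.

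Of the 10 tested collagens, 0 passed the test within Sox17(-), beside 10% of all tested genes, and 1, Col5a1, did within Sox17(+), beside 8.38%. Col18a1, the basement membrane collagen that gives rise to endostatin, was read by 3 probes. Its brightest probe had 5372 and 4811 on Sox17(+) 4 and 5, against 5100 and 5543 on Sox17(+) 2 and 3. It had 5901 and 6088 on Sox17(-) 4 and 5, against 4921, 4903 and 4559 on Sox17(-) 1 to 3 (0.32 ± 0.09, limma adjusted p = 0.0548). The probes disagreed on the call, since the dimmest (ILMN_1225839) was called higher within Sox17(-) (0.73 ± 0.12, limma adjusted p = 0.00728) and the third, at 0.34, was not. All 3 had positive differences within Sox17(-), and none was called within Sox17(+) (-0.06, 0.26 and -0.02). Agrn, which encodes a heparan sulfate proteoglycan of basement membranes, had 4023 to 5142 on Sox17(+) 2 to 5 and 4572 to 6179 on the other 6 arrays and was called in neither comparison (-0.23 and 0.27).

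The difference between the title comparisons of the labels was tested itself, and 0 of 48 members passed by limma, beside 0.0198% of all tested genes. At an unadjusted p under 0.05 there were 10 members (20.8%), beside 11.9% of all tested genes. The medians were -0.21 over the members and 0.00 over all tested genes. The members called in 1 label alone are therefore not shown to differ between the labels. Mmp2 differed by -0.67 ± 0.11 (limma adjusted p = 0.118), Col5a1 by -0.76 ± 0.15 (0.163) and Adamts1 by -0.83 ± 0.24 (0.252). Timp1 differed by -0.25 ± 0.12 (0.436) and Mmp9 by -0.35 ± 0.14 (0.395). With 64 in place of 16 added before log2, Mmp2 (-0.56, limma adjusted p = 0.0269) and Col5a1 (-0.61, limma adjusted p = 0.0282) passed.

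Between the labels themselves, the comparison the series states, 5 members were called higher and 7 lower on the arrays titled Sox17(+) (25.0%), beside 19.5% of all tested genes, 8.50% higher and 11.0% lower. The median was -0.08 over the members and -0.01 over all tested genes. The groups did not overlap for 3 of 48 members (Mmp2, Plod3 and Adamtsl4), beside 6.94% of all tested genes. For Serpinf1, Adamts19, Mmp11, Fbln2 and Mmp24 the array Sox17(+) 1 lay within the range of the Sox17(-) arrays, and Sox17(+) 2 to 5 all lay below it. With 1 array left out, 0 members were called without any of Sox17(+) 2, 4 or 5 or Sox17(-) 1, 2 or 3, where 8 to 35 of all tested genes were called, against 1966 with all arrays. There was 1 without Sox17(+) 3 (Mmp11), 4 without Sox17(-) 4, 8 without Sox17(-) 5 and 23 without Sox17(+) 1, where 442, 1276, 1314 and 4531 of all tested genes were called. The 12 differences kept their sign in each omission, with Mmp2 at -1.41 to -0.99 (highest limma adjusted p = 0.0617), Mmp11 at -1.0 to -0.73 (0.0629) and Plod3 at 0.29 to 0.40 (0.0905).

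Metalloproteases were among the lower members. Mmp2 had 596, 277, 294, 175 and 176 on Sox17(+) 1 to 5, against 629, 612, 614, 632 and 617 on Sox17(-) 1 to 5. The 5 Sox17(-) arrays lay between 612 and 632, and every Sox17(+) array lay below them, Sox17(+) 1 by little. The mean was 303 ± 173 on Sox17(+) and 621 ± 8.91 on Sox17(-) (SD, n = 5 each), a difference of -1.14 ± 0.26 (limma adjusted p = 0.0229). Mmp11, a stromelysin, had a mean of 299 ± 117 on Sox17(+) and 511 ± 26.1 on Sox17(-) (-0.81 ± 0.19, limma adjusted p = 0.0227). Its values were 225 to 303 on Sox17(+) 2 to 5 and 500 on Sox17(+) 1. The membrane-bound Mmp24 had 22.3 to 33.5 on Sox17(+) 2 to 5, 43.6 on Sox17(+) 1 and 42.9 to 54.0 on Sox17(-) (-0.43 ± 0.12, limma adjusted p = 0.0315). Mmp14, which activates pro-Mmp2 at the cell surface, was not called (0.22 ± 0.10, limma adjusted p = 0.137), with 1473 to 1729 on Sox17(+) and 1239 to 1724 on Sox17(-).

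Of the Adamts group, Adamts19 was lower (-1.22 ± 0.31, limma adjusted p = 0.0266). It lay above the background limit on 2 of 5 Sox17(+) arrays and on 5 of 5 Sox17(-) arrays, with 0.328 to 11.5 on Sox17(+) 2 to 5, 42.1 on Sox17(+) 1 and 27.9 to 60.9 on Sox17(-). Adamtsl4, which lacks the protease domain and binds fibrillin microfibrils, had a mean of 52.3 ± 3.18 on Sox17(+) and 64.3 ± 2.99 on Sox17(-) (SD, n = 5 each), a small difference of -0.23 ± 0.07 (limma adjusted p = 0.0413). Adamts13, which cuts von Willebrand factor, was higher (0.44 ± 0.14, limma adjusted p = 0.0449), with 18.9 to 38.2 on Sox17(+) and 9.97 to 21.8 on Sox17(-). Those ranges overlap.

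Fbln2, a fibulin that bridges matrix proteins, had 35.9 to 53.3 on Sox17(+) 2 to 5, 120 on Sox17(+) 1 and 89.2 to 134 on Sox17(-). The mean was 60.7 ± 34.1 on Sox17(+) and 110 ± 17.3 on Sox17(-) (-0.80 ± 0.22, limma adjusted p = 0.034). A dimmer second probe was not called (-0.18). Within Sox17(+) that probe was called higher in titles 4-5 than in titles 2-3 (0.49 ± 0.11, limma adjusted p = 0.0259). The brightest probe was not called there (0.07). Of the collagens, Col2a1, the main fibrillar collagen of cartilage, had a mean of 59.0 ± 7.12 on Sox17(+) and 37.2 ± 10.5 on Sox17(-) (0.51 ± 0.13, limma adjusted p = 0.0279), and its second probe, at 0.39, was not called. The transmembrane collagen Col25a1 had 31.4 to 44.4 on Sox17(+) 2 to 5, 3.37 on Sox17(+) 1 and 3.96 to 11.9 on Sox17(-) (0.93 ± 0.26, limma adjusted p = 0.035). It lay above the limit on 4 of 5 Sox17(+) and 1 of 5 Sox17(-) arrays. Col17a1, a hemidesmosome collagen singled out after its values were seen, was not called by its brightest probe (-0.35), while its other 2 probes were (-0.95 and -0.65).

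Plod3 was higher on the arrays titled Sox17(+), at 1763 ± 135, against 1386 ± 171 on Sox17(-) (SD, n = 5 each), a difference of 0.35 ± 0.10 (limma adjusted p = 0.0366). All 5 Sox17(+) arrays, from 1613 to 1871, lay above the highest Sox17(-) array at 1595. Of the serpins, Serpinf1, the anti-angiogenic factor PEDF, had 11.0 to 44.6 on Sox17(+) 2 to 5, 121 on Sox17(+) 1 and 83.9 to 121 on Sox17(-) (-1.31 ± 0.36, limma adjusted p = 0.0335). Serpinb12 was higher (0.63 ± 0.18, limma adjusted p = 0.0349) but dim, above the limit on 5 of 5 Sox17(+) and 1 of 5 Sox17(-) arrays and never above 19.4. In the serpin clades without a call, the most intense tested members were Serpini1, which encodes neuroserpin (-0.21 ± 0.13), and Serpina7, a thyroxine carrier (-0.22 ± 0.15).

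**Figure D4:**
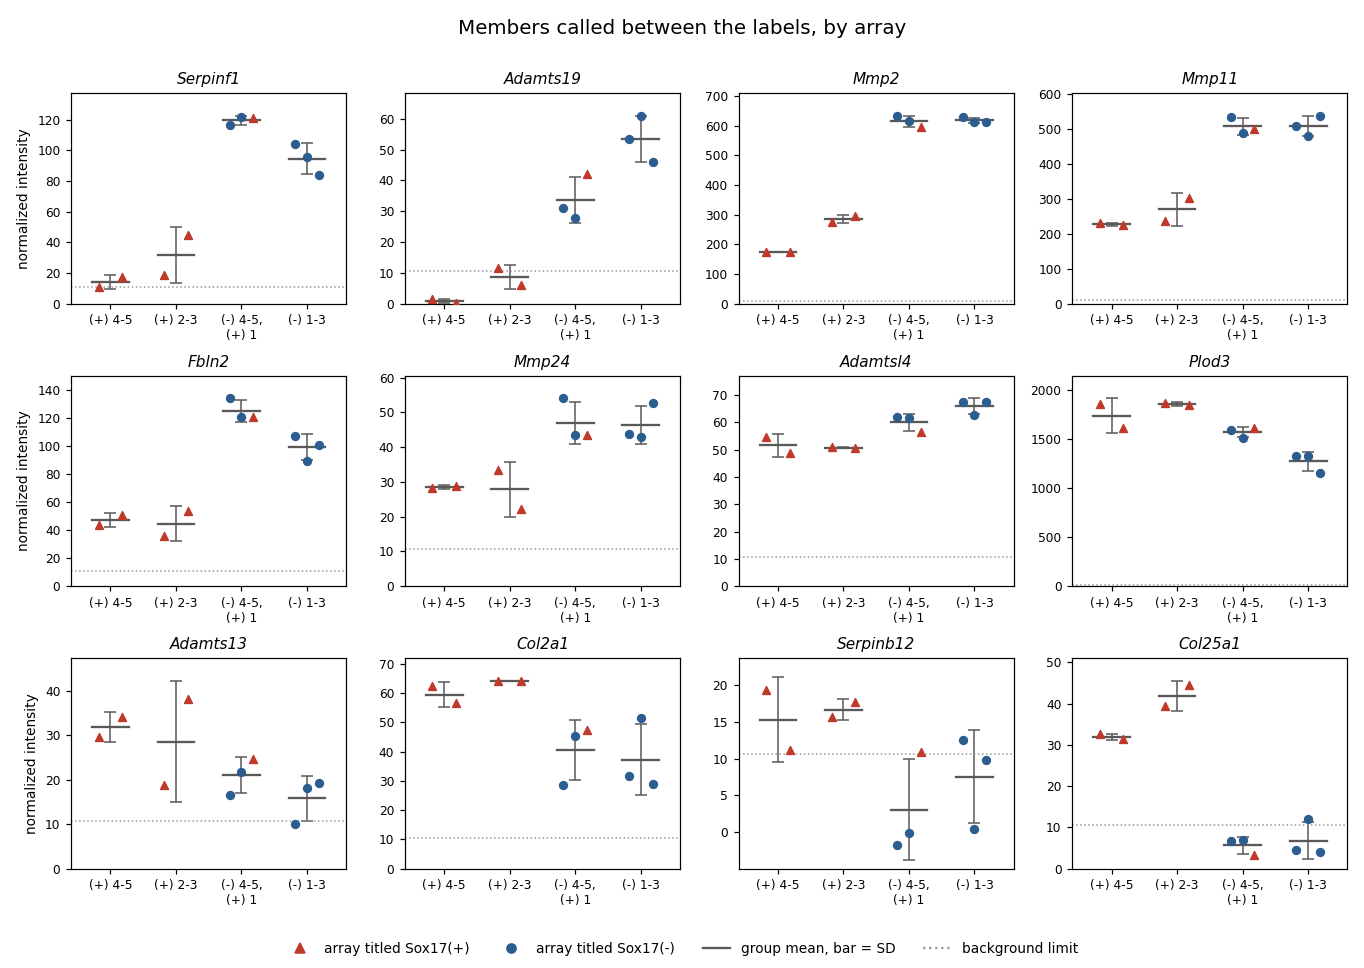
Normalized intensity (linear scale) of the 12 members called between the labels, lowest difference first, with the title groups from left to right Sox17(+) 4-5, Sox17(+) 2-3, Sox17(-) 4-5 with Sox17(+) 1, and Sox17(-) 1-3. Points are arrays (triangles Sox17(+), circles Sox17(-)), lines the group mean with SD over 2, 2, 3 and 3 arrays, and the dotted line the background limit of 10.6. For Serpinf1, Mmp2, Mmp11, Fbln2 and Col25a1 the triangle of Sox17(+) 1 lies with the circles and apart from the other 4 triangles.

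The array set is Sox17(+) 2 to 5 against the other 6 arrays, the division on the first principal component, which was seen in these data and is named by no label. Since label and array set differ by Sox17(+) 1 alone, the labels were also compared within each stretch of titles without it. Sox17(+) 2-3 against Sox17(-) 1-3 called 10 members higher and 13 lower (47.9%), beside 41.1% of all tested genes. Sox17(+) 4-5 against Sox17(-) 4-5 called 2 higher and 18 lower (41.7%), beside 37.7% of all tested genes, 16.2% higher and 21.5% lower, with medians of -0.27 over the members and -0.02 over all tested genes. In both stretches 1 member was called higher (2.08%, beside 11.3% of all tested genes) and 12 lower (25.0%, beside 15.4%). Here label and array set cannot be told apart. The filter asks for 5 arrays, so probes above the limit on Sox17(+) 2 to 5 alone were not tested. These were 5 of 112 probes of the untested members, beside 292 of 10712 of all untested probes. The counts of higher members leave them out. Mmp2 stood at -1.74 ± 0.08 in titles 4-5 (limma adjusted p = 1.53e-05) and at -1.07 ± 0.08 in the lower titles (limma adjusted p = 9.89e-05). Serpinf1 stood at -2.17 and -1.26, Fbln2 at -1.19 and -0.94, Mmp11 at -1.12 and -0.89, Adamts19 at -1.43 and -1.49 and Col25a1 at 1.07 and 1.36, all called. The dimmer second Fbln2 probe was called in the lower titles (-0.55) and not in titles 4-5 (0.075). Plod3 was called in the lower titles (0.54) and not in titles 4-5 (0.16). Of the 11 tested Mmp genes, 3 were called higher and 3 lower on Sox17(+) in the lower titles, beside 18.7% and 22.4% of all tested genes. The higher were Mmp9 (0.53), Mmp14 (0.31) and the dim Mmp19 (0.51), which lay above the limit on 1 of 3 Sox17(-) arrays. In titles 4-5, 0 Mmp genes were higher and 3 lower. With the array set as a block, where the label rests on Sox17(+) 1 alone, 0 members were called (limma, 3 at an unadjusted p under 0.05, or 6.25%, beside 4.71% of all tested genes).

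Genes that work beside the members were read from lists. The basement membrane and collagen processing list has 33 names, of which 22 were tested. Within Sox17(+), 3 were higher and 5 lower in titles 4-5, beside 3.38% and 5.00% of all tested genes. Within Sox17(-) 7 were higher and 3 lower, beside 5.01% and 5.03%. Col4a1, a type IV collagen chain, had 1825 and 2249 on Sox17(+) 4 and 5, against 388 and 448 on Sox17(+) 2 and 3, and 3934 and 3456 on Sox17(-) 4 and 5, against 502, 480 and 467 on Sox17(-) 1 to 3. It was higher in titles 4-5 of each label (2.24 and 2.89), as were its partner chain Col4a2 (2.00 and 2.77) and the laminin gene Lama1 (1.14 and 1.86). Lower in both were the cross-linking transglutaminase gene Tgm2 (-0.94 and -1.12), the procollagen C-proteinase gene Bmp1 (-0.68 and -0.55) and the prolyl hydroxylase gene P4ha2 (-0.89 and -0.34). P4ha1, another prolyl hydroxylase gene, was called lower within Sox17(+) (-0.96) and not within Sox17(-) (-0.30). Between the labels 1 of the 22 was lower, the collagen chaperone gene Serpinh1 (-0.62), and 0 were higher, beside 11.0% and 8.50% of all tested genes. On Sox17(+) 2-3 against Sox17(-) 1-3, 8 were higher and 2 lower, beside 18.7% and 22.4% of all tested genes. On Sox17(+) 4-5 against Sox17(-) 4-5, 0 were higher and 10 lower, beside 16.2% and 21.5%. Label and array set cannot be told apart in these either.

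The proteolysis list has 26 names, of which 19 were tested, the member Mmp14 among them. Within Sox17(+) 1 was higher and 2 lower in titles 4-5, beside 3.38% and 5.00% of all tested genes. Within Sox17(-) 6 were higher and 1 lower, beside 5.01% and 5.03%. Htra1, a secreted serine protease, had 1082 and 1174 on Sox17(+) 4 and 5, against 451 and 424 on Sox17(+) 2 and 3, and 718 and 606 on Sox17(-) 4 and 5, against 183, 172 and 180 on Sox17(-) 1 to 3. It rose in both (1.34 and 1.80). Spint1, an inhibitor of membrane serine proteases, fell in both (-0.97 and -0.71). Plaur, the urokinase receptor gene, was called lower within Sox17(+) (-0.68). Spint2 (0.57), an inhibitor related to Spint1, and the metalloprotease gene Adam19 (0.69) were called higher within Sox17(-). Between the labels 2 were lower, the proprotein convertase gene Furin (-0.57) and the kallikrein gene Klk8 (-0.35), beside 11.0% of all tested genes. On Sox17(+) 2-3 against Sox17(-) 1-3, 6 were higher and 2 lower, beside 18.7% and 22.4% of all tested genes. On Sox17(+) 4-5 against Sox17(-) 4-5, 1 was higher and 10 lower, beside 16.2% and 21.5%.

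Cell type markers were read beside these comparisons. The summed intensity of the 11 parietal endoderm markers on the array was 10870 to 10990 on Sox17(+) 4-5, 6702 to 7053 on Sox17(+) 2-3, 15450 to 16910 on Sox17(-) 4-5 with Sox17(+) 1, and 6988 to 7171 on Sox17(-) 1-3. Of the 8 tested, 3 rose within Sox17(+) (Col4a1, Col4a2 and Lama1) and 4 within Sox17(-) (the same and Lamc1), beside 3.38% and 5.01% of all tested genes. All of these risers are also on the basement membrane list above. Sparc, Lamb1, Fst and Pth1r were called in neither comparison, with Sparc at -0.24 and Lamb1 at -0.16 within Sox17(+). Thbd lay at or below the limit on all arrays. The 8 primitive endoderm regulators, Sox17 among them, summed to 470 to 487, 342 to 354, 1218 to 1322 and 484 to 552 in the same order of groups. The 8 embryonic stem cell markers summed to 46720 to 53350 over all groups, and of these 1 was called between titles, Pou5f1 within Sox17(+) (0.43). Between the labels Klf4 (-0.78) and Sox2 (-0.29) of that list were called lower on Sox17(+), and 0 were higher. Klf4 had 975 to 1279 on Sox17(+) 2 to 5, 2021 on Sox17(+) 1 and 2105 to 2534 on Sox17(-). The 10 fibroblast markers on the array summed to 156 to 160, 206 to 215, 209 to 240 and 334 to 354, with Dcn, Lum, Postn and Twist2 at or below the limit on all arrays. Within that sum Thy1 had mean intensities of 46.0, 86.0, 157 and 272 in the same order, and it was lower in titles 4-5 of each label (-0.72 and -0.75). Of the 5 fibroblast markers tested, Thy1 and Prrx1 were lower (-1.33 and -0.45) and Acta2 and Twist1 higher (0.87 and 0.78) on the arrays titled Sox17(+) than on those titled Sox17(-). The 7 visceral endoderm markers summed to 259 to 265, 355 to 362, 475 to 484 and 506 to 565, with Afp and Ttr at or below the limit on all. Of that list Trf (-0.62), Amn (-0.56) and Apoa1 (-0.46) were called lower on the arrays titled Sox17(+). Of the other endoderm lists, Fst was called lower (-0.88) and Hnf4a higher (0.48) between the labels. Some of the called markers were dim. Apoa1, Prrx1 and Fst each lay above the limit on 1 of 5 Sox17(+) arrays, and Acta2 on 2 of 5 Sox17(-) arrays. Of all tested genes 11.0% were called lower and 8.50% higher. The part of these markers in the results above was not tested.

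Over the 10 arrays, the genes outside the members whose log2 values followed Loxl2 most closely were Igfbp4 (Pearson r = 0.984), Pkp2 (0.982) and Slitrk5 (0.982). Those that followed Serpinb6c were Fam169b (0.980), Plekhf2 (0.978) and Cyp4f14 (0.977). Cyp4f14 had 153 and 134 on Sox17(+) 4 and 5, 143 and 162 on Sox17(-) 4 and 5 and 138 on Sox17(+) 1, and on the other 5 arrays it had at most 3.03, below the limit. These correlations describe 10 arrays that share the division by title, and carry no test.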

How the data were processed

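Total RNA was hybridised to 10 Illumina bead arrays with 25697 probes each. The authors' deposited values are normalized intensities on a linear scale. Judged from the deposited intensities, background was subtracted, as 25.5% of them lie below 0, and the arrays were brought to a common 75th percentile. Their software and settings were not given in the sources used here. A second table, whose 20 columns match no label, was not used. Array medians were 21.7 to 22.0, and the number of arrays limits the precision.

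Values below 0 were set to 0, 16 was added and log2 taken. The SD of the values below 0, mirrored about 0, was 6.45 and set the limit for background at 10.6, with 15.0 as a stricter alternative. Probes above that limit on 5 or more arrays entered two-sided tests by limma 3.58.1 under R 4.3.3 (functions lmFit and eBayes), with a Benjamini-Hochberg adjusted threshold of 0.05. The labels were compared in a fit of 2 groups, and the title groups in a fit of 5 means in which Sox17(+) 1 has its own. Probes were named from the platform annotation (23978 with 1 symbol, 1719 with none, 23962 updated or kept through the Entrez identifier). Figures were drawn with matplotlib 3.10.9.

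The members, the gene lists and the tests were chosen with earlier results of these data known. Named members are up to 3 called genes per family, direction and comparison, the largest first, and the 2 most intense members of a family or serpin clade without a call. Partner genes are up to 3 per direction. Alternatives covered the added constant, the filter, renormalization, array weights, blocks, left-out arrays and the place of Sox17(+) 1. Deviations of same-numbered titles correlated at 0.29 to 0.31 in 4 of 5 pairs and at -0.06 in the pair numbered 1, so not every pair was over 0.1. The labels name nothing that a shared number marks, and the number was used as a block in an alternative alone.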

Additional observations from a re-analysis of the deposited data

Results flagged for a closer look

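The array Sox17(+) 1 stood apart from the other 4 arrays titled Sox17(+) for Col25a1, with an intensity of 3.37 (3.365 before rounding), against 31.4 to 44.4 on Sox17(+) 2 to 5 and 3.96 to 11.9 on the arrays titled Sox17(-). On the log2(intensity + 16) scale its gap to the nearest of the others was 0.787 of the range of the group. On that scale 1 array stood apart in this way among 52 groups, the 26 named members in each label, and about 1 group in 20 is marked by chance. On linear intensity the same rule marks 4 other cases and not this one, each of them Sox17(+) 1 lying above Sox17(+) 2 to 5, for Fbln2 (a gap of 0.795 of the range), Adamts19 (0.732), Mmp11 (0.717) and Mmp2 (0.716). Without Sox17(+) 1 the difference between the labels was 1.22, and with it 0.93.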

How the results depend on the processing

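Between the labels 12 members were called. The number was 5 with 1 added before log2, 27 with array weights (which gave Sox17(+) 1 a weight of 0.169), 1 without the filter on dim probes (Adamtsl4) and 0 with the array set as a block (limma, 3 at an unadjusted p under 0.05). Under that block Col25a1 (-0.224), Fbln2 (0.124) and Serpinf1 (0.196) took the other sign. Leaving out 1 array gave 0 to 23. Compared within a stretch of titles, a choice made after seeing the data, Sox17(+) 2-3 against Sox17(-) 1-3 gave 23 and Sox17(+) 4-5 against Sox17(-) 4-5 gave 20. With the title number as a replicate block it was 13, with the loss of Adamtsl4, and with the description run as a block 16.

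Within Sox17(-), titles 4-5 against 1-3, 9 members were called. It was 16 with 64 added before log2, 17 with Sox17(+) 1 joined to Sox17(-) 4-5, and 7 to 9 with 1 array left out. Loxl1, Loxl2, Plod2, Timp2, Serpinb6c, Mmp23 and Serping1 stayed called in every alternative run.

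Within Sox17(+), titles 4-5 against 2-3, 13 members were called. It was 2 (Loxl1 and Plod2) with Sox17(+) 1 joined to Sox17(+) 2-3, and 7 to 13 with 1 array left out, where 8 were called without Sox17(+) 2, 7 without Sox17(+) 3 and 7 without Sox17(+) 5. For the difference between these comparisons, 0 members were called, 2 with 64 added before log2 (Col5a1 and Mmp2) and 2 without the filter (Col24a1 at -0.25 and Mmp2 at -0.67). The cause of these changes was not tested. Signal limits what can be read: 88 of 136 members were too dim to test, and groups hold 2 or 3 arrays.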
